A study of Mus musculus with 8 samples.

Results

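Ly6a and 3 related genes of the Ly6 family, Ly6c1, Ly6e and Ly6h, were examined in single oligodendrocytes of Fire+/+ and FireΔ/Δ mice. The 4 genes were listed by name out of 18833 genes in the deposited matrix, and the choice was made with the expression values of these cells known, Ly6a for its level in the Oligo1 cluster. Levels in Oligo1, levels over all oligodendrocytes and the co-detection of Ly6a with C4b are therefore given as descriptions without a test.

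Ly6 proteins are small and cysteine-rich, fold into a so-called three-finger domain, and mostly sit on the outer face of the cell membrane through a glycolipid anchor. Ly6a encodes Sca-1, a surface antigen best known from blood stem cells and, in the brain, from endothelial cells, and inbred mouse strains carry different forms of it. Ly6c1 encodes an antigen found on monocytes and on brain endothelium, Ly6e an interferon-inducible protein studied for its effect on virus entry, and Ly6h a protein of neurons that acts on nicotinic acetylcholine receptors. C4b encodes complement component C4, which is cleaved during complement activation.

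The cells came from 4 female mice on a mixed CBA and C57Bl6J background. Fire+/+ mouse 1 and FireΔ/Δ mouse 3 were 1 month and 18 days old, and Fire+/+ mouse 4 and FireΔ/Δ mouse 6 were 1 month and 16 days old. FireΔ/Δ mice carry a homozygous germline deletion of Fire, an enhancer within Csf1r, in every cell, and lack microglia; Fire+/+ mice are wild-type controls from crosses of carriers. Each mouse gave a hippocampus library and a library from the rest of the left hemisphere, labelled cortex, without olfactory bulb and cerebellum, so that neither library is pure for white matter. The 8 libraries held 904 to 2784 cells and 12581 in all, assigned by the authors to clusters Oligo1 to Oligo4. The study describes a somewhat larger set of oligodendrocytes and genes than the files used here, and the remainder was not analysed here. Oligo1 held 1558 cells, of which 6 came from Fire+/+ mice, and Oligo2 to Oligo4 together held 11023 cells.

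A library pair with the same tissue and the same age was one batch of the deposited cell annotation, and each batch held both genotypes. Each batch held 1 tissue only, so hippocampus against cortex cannot be told apart from batch. The median number of unique molecular identifiers (UMIs, counted transcripts) per cell ranged from 9377 to 13725.5. A Csf1r UMI was seen in 5.31% to 10.2% of cells in Fire+/+ libraries and in at most 0.155% in FireΔ/Δ libraries, and each of the myelin genes Mog, Mag and Mbp was seen in 100% of cells in every library, to 3 digits. Among the 12581 cells, 42 carried a barcode also found in another library. The files hold oligodendrocytes only, so the share of free transcripts in a cell type without these genes was not measured. Cells with at least 5 UMIs of a gene are therefore counted beside cells with any.

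The 4 genes lie on chromosome 15 of the GRCm38 build, where Ly6 genes form a cluster of near copies. Ly6e spans 74955051 to 74959905 on the plus strand. Ly6a (74994877 to 74998031), Ly6c1 (75044018 to 75048830), Ly6c2 (75108158 to 75111970) and Ly6h (75551268 to 75567255) lie on the minus strand. C4b lies on chromosome 17 at 34728380 to 34743882, also on the minus strand. The likeness of the copies bears on what a count means, since a short read that fits more than 1 gene may be dropped or assigned to the wrong one. The middle coding exon of 117 bases, read 5′ to 3′ on the coding strand from the GENCODE M21 transcripts, is shown for Ly6a and for the Ly6c pair, with capitals at the bases that differ from Ly6c1.
Ly6a: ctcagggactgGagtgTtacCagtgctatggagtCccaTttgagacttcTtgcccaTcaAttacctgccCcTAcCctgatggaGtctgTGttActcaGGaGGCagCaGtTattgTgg
Ly6c1: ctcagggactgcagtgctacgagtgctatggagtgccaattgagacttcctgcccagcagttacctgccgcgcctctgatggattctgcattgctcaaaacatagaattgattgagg
Ly6c2: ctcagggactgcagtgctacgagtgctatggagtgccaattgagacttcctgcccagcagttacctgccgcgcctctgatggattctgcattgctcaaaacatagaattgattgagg

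The Ly6c2 exon (75110511 to 75110627) did not differ from that of Ly6c1 (75047353 to 75047469), whereas the Ly6a exon (74996452 to 74996568) differed at 25 bases, an identity of 78.6%. The sequencing chemistry reads the 3′ ends of transcripts. In the last 500 bases of each transcript, 43% of the 470 words of 31 bases in Ly6c1 also occurred in another gene, all of them in Ly6c2. The share was 13.6% for Ly6a, mostly words of the predicted gene I830127L07Rik, 0.426% for Ly6e and 0% for Ly6h. For C4b it was 57.7%, shared with its copy C4a. Values of Ly6c1 and C4b are thus uncertain, as reads could be split with a copy, while those of Ly6e and Ly6h are nearly free of this limit. Ly6c2 itself had 6 UMIs in the whole matrix.

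Ly6a was the most abundant of the 4 genes, and its transcripts were concentrated in few cells. A Ly6a UMI was detected in 3174 of 12581 cells (25.2%), with 23202 UMIs in all and a maximum of 132 in 1 cell. Of the positive cells, 973 held a single UMI, 1387 held at least 5, 755 at least 10, 248 at least 20 and 35 at least 50. The 126 cells with most Ly6a, 1% of all cells, carried 25.7% of its UMIs, and the 629 highest cells, 5% of all, carried 62.1%. The variance of the UMI count over cells was 21.7 times its mean. The other 3 genes were sparse. Ly6c1 was detected in 5.41% of cells (1338 UMIs), Ly6e in 6.98% (1121 UMIs) and Ly6h in 2.45% (486 UMIs), and 74.4%, 84.4% and 80.8% of their positive cells held a single UMI.

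**Figure D1:**
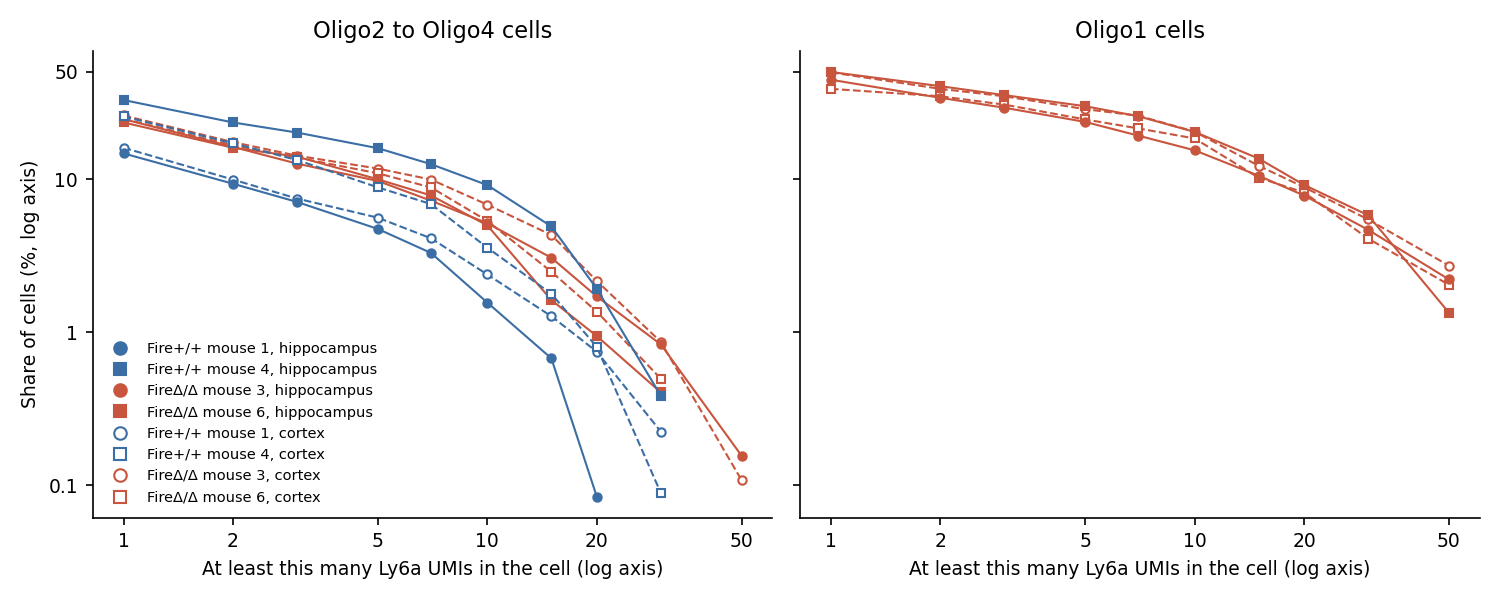
Share of cells (%, log axis) with at least a given number of Ly6a UMIs (log axis) for each library, in Oligo2 to Oligo4 cells and in Oligo1 cells of FireΔ/Δ mice; shares of 0 are not drawn. At 5 UMIs the Oligo1 curves lie at 23.6% to 29.9% of cells and the Oligo2 to Oligo4 curves of both genotypes at 4.72% to 15.9%.

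In FireΔ/Δ mice, Ly6a was higher in Oligo1 than in the other clusters in both tissues of both mice. The mean log2 value in Oligo1 was 1.09 in hippocampus of mouse 3, 1.25 in hippocampus of mouse 6, 1.16 in cortex of mouse 3 and 0.99 in cortex of mouse 6. The corresponding means over Oligo2 to Oligo4 cells of the same libraries were 0.51, 0.45, 0.50 and 0.44. These values do not overlap, and the difference, averaged per mouse, was 0.65 ± 0.03 on the log2 scale (SD, n = 2 mice). In CPM, the UMIs of a gene summed over cells and scaled to a total of 1000000 UMIs, Oligo1 stood at 523, 540, 443 and 419 in these libraries, in the same order, and was 3.29, 4.32, 3.2 and 3.64 times as high as the other cells. Because the clusters were formed from the same values and the gene was chosen for this contrast, no test was applied.

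Ly6a was detected in a part of the Oligo1 cells only. After each cell was thinned to 5000 UMIs, so that depth was equal, Ly6a was detected in 37.1% of 859 Oligo1 cells in hippocampus of mouse 3, 41.7% of 448 in hippocampus of mouse 6, 40.8% of 147 in cortex of mouse 3 and 32.7% of 98 in cortex of mouse 6. The lowest bound of the exact (Clopper-Pearson) 95% intervals, which cover counting error only, was 23.5%, in cortex of mouse 6. Without thinning the shares were 44.5%, 50%, 49.7% and 38.8%. By comparison, C4b was detected in 98.7% of the FireΔ/Δ Oligo1 cells that held no Ly6a UMI. A cell without a UMI may still express the gene, so these are shares of cells in which Ly6a was detected. The 6 Oligo1 cells of Fire+/+ mice, all in hippocampus of mouse 4, were too few to describe.

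Among the other clusters, the level of Ly6a followed the order Oligo2, Oligo3, Oligo4 in most libraries. In Fire+/+ mice the mean log2 value in Oligo2 was 0.36 (hippocampus, mouse 1), 0.81 (hippocampus, mouse 4), 0.30 (cortex, mouse 1) and 0.50 (cortex, mouse 4). It was 0.25, 0.61, 0.26 and 0.48 in Oligo3, and 0.15, 0.39, 0.10 and 0.21 in Oligo4. Each Fire+/+ library thus kept the order, but the ranges over libraries overlapped, since mouse 4 exceeded mouse 1 in every cluster. In FireΔ/Δ mice Oligo2 stood at 0.79 (hippocampus, mouse 3), 0.59 (hippocampus, mouse 6), 0.60 (cortex, mouse 3) and 0.45 (cortex, mouse 6). Oligo3 stood at 0.42, 0.43, 0.47 and 0.44, and Oligo4 at 0.42, 0.35, 0.31 and 0.47. Oligo2 exceeded Oligo3 in 8 of 8 libraries and Oligo3 exceeded Oligo4 in 7 of 8. The exception was cortex of FireΔ/Δ mouse 6, a library of batch 6. Under that number the paper describes a batch of lower quality than the rest. Cortex of Fire+/+ mouse 4 and of FireΔ/Δ mouse 6, its libraries, had the highest mitochondrial shares of the 8, at 6.24% and 6.28% of UMIs. With equal depth the share of positive cells was higher in Oligo2 than in Oligo3 in 6 of 8 libraries, so that these neighbours cannot be ordered by detection alone.

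**Figure D2:**
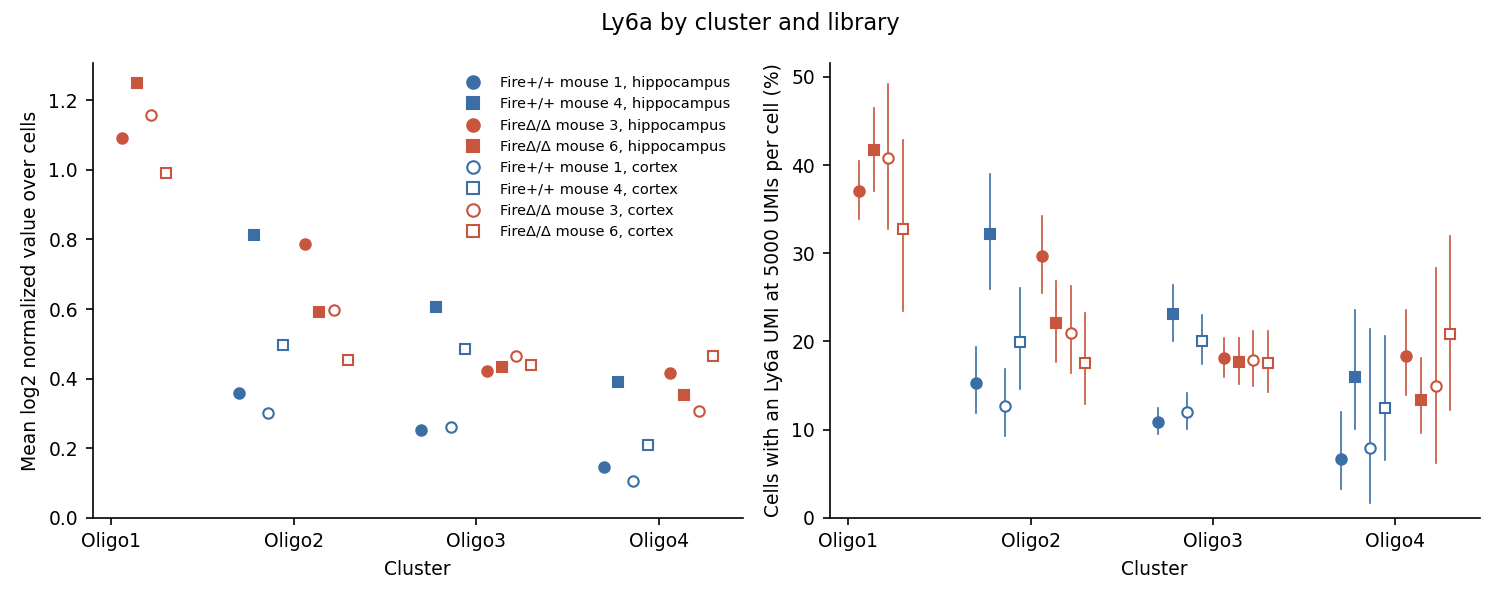
Mean log2 value of Ly6a (left) and share of cells with a Ly6a UMI after thinning to 5000 UMIs per cell (right, %, bars: exact 95% intervals) by cluster, 1 point per library, units with at least 20 cells. The 4 FireΔ/Δ libraries lie at 0.99 to 1.25 in Oligo1 and every library lies at or below 0.81 in the other clusters.

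The question of whether the loss of microglia changed Ly6 genes outside Oligo1 was addressed in Oligo2 to Oligo4 cells, with the mouse as the replicate. For Ly6a the mean log2 value per mouse was 0.264 in Fire+/+ mouse 1, 0.543 in Fire+/+ mouse 4, 0.501 in FireΔ/Δ mouse 3 and 0.450 in FireΔ/Δ mouse 6. Both FireΔ/Δ mice fell between the Fire+/+ mice, so the genotypes overlapped. FireΔ/Δ minus Fire+/+ was 0.07 (SE 0.11, 95% interval -0.27 to 0.41), with adjusted p = 1 by limma across 9232 genes with Benjamini-Hochberg adjustment. At the threshold of 0.05, 0% of the 9232 genes were called, that is 0 genes by limma, with 133 at an unadjusted p below 0.05, and edgeR on summed UMIs called 3 genes, none of them Ly6a, Ly6c1 or Ly6e. Differences within the interval of Ly6a cannot be told from 0 with these mice.

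The spread between the Fire+/+ mice was the main feature of Ly6a outside Oligo1. In Fire+/+ mouse 4 the summed level was 169 CPM in hippocampus and 111 in cortex, against 62.1 and 64.4 in Fire+/+ mouse 1. Mouse 4 was thus 2.72 times as high in hippocampus and 1.72 times as high in cortex, whereas FireΔ/Δ mice 3 and 6 differed by 1.27 and 1.21 times. The share of thinned cells with a Ly6a UMI gave the same picture, at 11.3% (exact 95% interval 10.1 to 12.7) and 12.1% (10.4 to 13.9) in hippocampus and cortex of mouse 1 and 24.1% (21.5 to 26.8) and 19.4% (17.1 to 21.8) in those of mouse 4. Within batches, FireΔ/Δ minus Fire+/+ was 0.24 in hippocampus and 0.23 in cortex of the older pair, and -0.17 and -0.02 in hippocampus and cortex of the younger pair. On this scale the sign of the genotype difference therefore changed with the pair. In cortex of the younger pair it depended on the scale, with 115 CPM in FireΔ/Δ mouse 6 against 111 in Fire+/+ mouse 4. Without Fire+/+ mouse 1 the difference was -0.068 (adjusted p = 1, limma) and without Fire+/+ mouse 4 it was 0.211 (adjusted p = 1, limma). Over all oligodendrocytes, Oligo1 included, FireΔ/Δ minus Fire+/+ was 0.20. The larger of the SDs between mice of the same genotype was also 0.20 (n = 2 mice). The labels tie both mouse 1 libraries to 1 age and batch pair, so that mouse, age and batch cannot be told apart. The share of each strain of the mixed background in a given mouse is not given in the sources used here.

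The upper end of the distribution differed in the same way. Cells with at least 5 Ly6a UMIs made up 4.72% and 5.59% of Oligo2 to Oligo4 cells in hippocampus and cortex of Fire+/+ mouse 1, and 15.9% and 8.82% in those of Fire+/+ mouse 4. In FireΔ/Δ mice they made up 9.71% and 9.96% in hippocampus of mice 3 and 6 and 11.7% and 10.9% in cortex. The FireΔ/Δ libraries were again close to each other and within the range of the Fire+/+ libraries. At least 50 Ly6a UMIs were found in none of the Oligo2 to Oligo4 cells of the Fire+/+ mice and in 3 hippocampus cells and 1 cortex cell of FireΔ/Δ mouse 3. Oligo1 held 19 and 6 such cells in hippocampus of FireΔ/Δ mice 3 and 6, and 4 and 2 in cortex.

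Ly6c1 was seen in few cells and overlapped between genotypes. Its mean log2 value per mouse in Oligo2 to Oligo4 cells was 0.032 and 0.058 in Fire+/+ mice 1 and 4, and 0.063 and 0.058 in FireΔ/Δ mice 3 and 6. FireΔ/Δ mouse 6 stood at the same value as Fire+/+ mouse 4, and the genotype difference was 0.02 (SE 0.015, adjusted p = 1, limma). CPM values were 3.39 and 9.16 in hippocampus of Fire+/+ mice 1 and 4, 8.64 and 9.48 in cortex of these mice, 11.9 and 9.79 in hippocampus of FireΔ/Δ mice 3 and 6, and 8.43 and 12.3 in cortex. The hippocampus of mouse 1 was the low library, as it was for Ly6a. Ly6c1 was higher in Oligo2 than in Oligo3 in 7 of 8 libraries by mean log2 value and in 8 of 8 by the thinned share of positive cells. In Oligo1 it was 1.18, 1.34, 2.55 and 0.428 times its summed level in the other FireΔ/Δ cells (hippocampus of mice 3 and 6, then cortex), so no single direction was seen. In cortex of mouse 6 the Oligo1 value rested on 7 UMIs.

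Ly6e showed the same lack of separation. Its mean log2 value per mouse was 0.043 and 0.064 in Fire+/+ mice 1 and 4 and 0.071 and 0.057 in FireΔ/Δ mice 3 and 6. The genotypes overlapped, with a difference of 0.01 (SE 0.015, adjusted p = 1, limma). In CPM the libraries ranged from 4.56, in cortex of Fire+/+ mouse 1, to 11.2, in hippocampus of FireΔ/Δ mouse 3. Unlike Ly6a, Ly6e was lower in Oligo2 than in Oligo3 in 7 of 8 libraries, by mean log2 value and by the thinned share of positive cells. Oligo1 was 0.84, 1.33, 1.9 and 1.95 times as high as the other FireΔ/Δ cells.

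**Figure D3:**
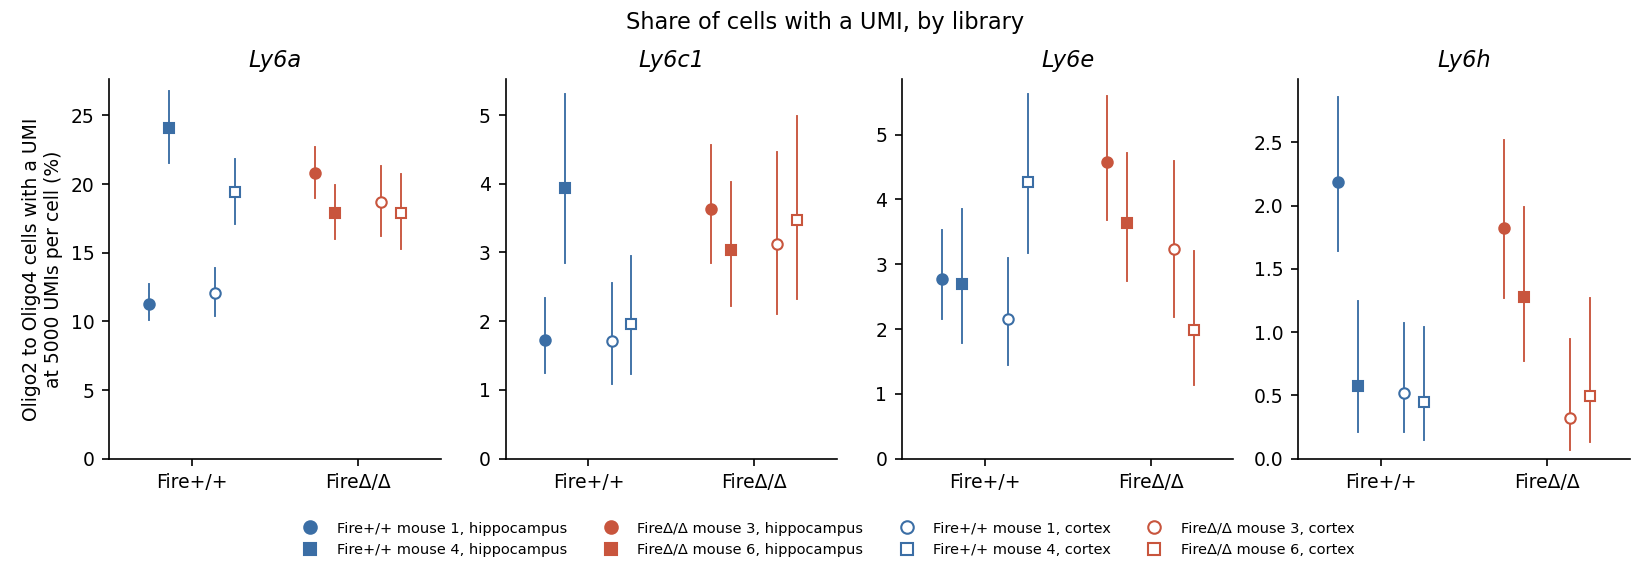
Share of Oligo2 to Oligo4 cells (%) with a UMI of Ly6a, Ly6c1, Ly6e or Ly6h after thinning to 5000 UMIs per cell, 1 point per library with its exact 95% interval; each panel has its own scale. Ly6a ranges from 11.3% to 24.1%, both in hippocampus of Fire+/+ mice, and Ly6h is higher in the hippocampus than in the cortex library of each mouse.

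Ly6h was the only one of the 4 genes with the same tissue direction in every mouse. The share of all genes with the same direction in every mouse, or with no overlap between tissues, was not counted. Neither trait can therefore be called particular to Ly6h. In Oligo2 to Oligo4 cells it had 6.36 CPM in hippocampus and 1.18 in cortex of Fire+/+ mouse 1, and 1.66 and 0.548 in those of Fire+/+ mouse 4. In FireΔ/Δ mice it had 6.28 and 0.788 in mouse 3 and 3.61 and 1.03 in mouse 6. Hippocampus was higher in 4 of 4 mice, by 5.39, 3.03, 7.97 and 3.5 times in mice 1, 4, 3 and 6, and in CPM the tissues did not overlap. The cortex values rested on 20, 7, 10 and 11 UMIs in mice 1, 4, 3 and 6, and hippocampus of mouse 4 on 23. After thinning, mouse 4 had Ly6h in 0.576% of hippocampus cells (exact 95% interval 0.212 to 1.25) and 0.445% of cortex cells (0.145 to 1.04). Tissue and batch cannot be told apart here. Ly6h lay below the minimum of 5% of cells set for the test across genes. In the fit without that minimum, hippocampus minus cortex was 0.019 on the mean log2 scale (SE 0.005, 95% interval 0.006 to 0.033), with adjusted p = 0.641 by limma over 18805 genes. With the mouse as a replicate block the adjusted p was 0.314, and edgeR on summed UMIs gave a log2 ratio of 2.33 with adjusted p = 0.0976, in a fit that called 14 of 18805 genes, all higher in hippocampus. The adjusted p of this difference ranged from 0.0976 to 1 over its alternatives, so that Ly6h did not pass the correction in any of them.

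Part of the Ly6h signal lay in cells with neuronal transcripts. The 19 cells with at least 5 Ly6h UMIs were all from hippocampus, and the sum of 7 neuronal markers (Snap25, Syt1, Rbfox3, Stmn2, Slc17a7, Gad1, Gad2) was 1050 CPM in the cells with 5 to 9 Ly6h UMIs, against 13.2 in cells without Ly6h. The neuronal sum was 25.4 CPM in hippocampus and 11.7 in cortex of mouse 1, and 25.2 and 10 in those of mouse 3. It was 21 and 18 in mouse 6 and near equal in mouse 4, at 10.9 and 10.8. The share of cells with a neuronal marker UMI did not keep this direction. It was 12.7% in hippocampus and 9.99% in cortex of mouse 1, 10.8% and 10.2% in mouse 4, and 11.5% and 11.3% in mouse 3. In mouse 6 it was lower in hippocampus, at 14.1% against 19.5%. In cells without a UMI of any neuronal marker, Ly6h was detected in 2.75%, 1.72%, 2.35% and 2.27% of hippocampus cells of mice 1, 4, 3 and 6, and in 1.08%, 0.595%, 0.852% and 0.924% of cortex cells. Hippocampus was higher in 4 of 4 mice in these cells too. Cells without a marker UMI can still carry neuronal transcripts, and the part of such transcripts in the tissue difference was not tested.

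For the other 3 genes no tissue direction held. The main fit took library values with genotype as covariate and held no mouse term, although each mouse gave both tissues. Hippocampus minus cortex was 0.04 for Ly6a (SE 0.08, 95% interval -0.16 to 0.25, adjusted p = 0.998, limma), 0.005 for Ly6c1 (adjusted p = 0.998, limma) and 0.007 for Ly6e (adjusted p = 0.998, limma). In this comparison 0% of 9232 genes were called by limma, 476 genes had an unadjusted p below 0.05, and edgeR called 0 of these genes. The difference between genotypes in the tissue effect of Ly6a was -0.07 (SE 0.06, adjusted p = 0.912, limma), where again 0% of 9232 genes were called, with 482 below an unadjusted p of 0.05. No other tool was run for that interaction. Within mice, the Ly6a level of hippocampus over cortex was 0.964, 1.52, 1.14 and 1.09 in mice 1, 4, 3 and 6. With the mouse as a replicate block, the adjusted p of the tissue difference by limma was 0.533 for Ly6a, 0.812 for Ly6c1 and 0.789 for Ly6e. That block fit called 6 of 9232 genes, 3 in each direction.

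Since Ly6a and Ly6c1 are well-known endothelial transcripts, the cells were examined for endothelial markers by their number of Ly6 UMIs. Any UMI of Cldn5, Flt1, Pecam1, Cdh5 or Itm2a was seen in 2.02% of cells without Ly6a, 2.35% of cells with 1 to 4 Ly6a UMIs, 2.85% with 5 to 9 and 1.72% with 10 or more. The sum of 18 endothelial markers was 93.1 CPM in cells without Ly6a and 139 in the 755 cells with 10 or more. Slc2a1, which encodes a glucose transporter and was seen in 58.3% of all cells, supplied 76.2% of the UMIs of this list. Without it the sum of the other 17 markers was 12.4 CPM in cells without Ly6a and 63.4, 70 and 56.5 CPM in cells with 1 to 4, 5 to 9 and 10 or more Ly6a UMIs. Most cells rich in Ly6a thus held no UMI of the 5 endothelial genes, while the endothelial sum was higher in Ly6a-positive than in Ly6a-negative cells, and the part of endothelial transcripts in the Ly6a level was not tested. Of the 755 cells, 272 were in Oligo1, 174 in Oligo2, 277 in Oligo3 and 32 in Oligo4.

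The few cells with most Ly6c1 or Ly6e were different. Of 16 cells with 10 or more Ly6c1 UMIs, 81.2% held an endothelial UMI, and their endothelial sum was 8960 CPM. Of 7 cells with 5 to 9 Ly6e UMIs, 85.7% held one, with a sum of 8970. Both sums stand against 91.5 and 91.9 CPM in the cells without Ly6c1 and without Ly6e. Of 3 cells with 10 or more Ly6e UMIs, 66.7% held an endothelial UMI, with a sum of 8280 CPM. Of 17 cells with 5 to 9 Ly6c1 UMIs, however, only 11.8% held one, with a sum of 649 CPM. Cells with 1 to 4 Ly6c1 UMIs held an endothelial UMI in 2.78% of cases, against 1.93% of cells without Ly6c1. For Ly6e these shares were 3.92% and 1.89%. Without Slc2a1, the endothelial sum was 23.5 CPM in cells with 1 to 4 Ly6c1 UMIs and 10.7 in cells without Ly6c1. For Ly6e it was 106 and 10.8 CPM. The part of endothelial transcripts in the Ly6c1 and Ly6e levels was not tested. Over all clusters, 263 cells held an endothelial UMI. Leaving out those in Oligo2 to Oligo4 changed the genotype difference of Ly6a in these clusters from 0.07 to 0.08, with adjusted p = 1 (limma).

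**Figure D4:**
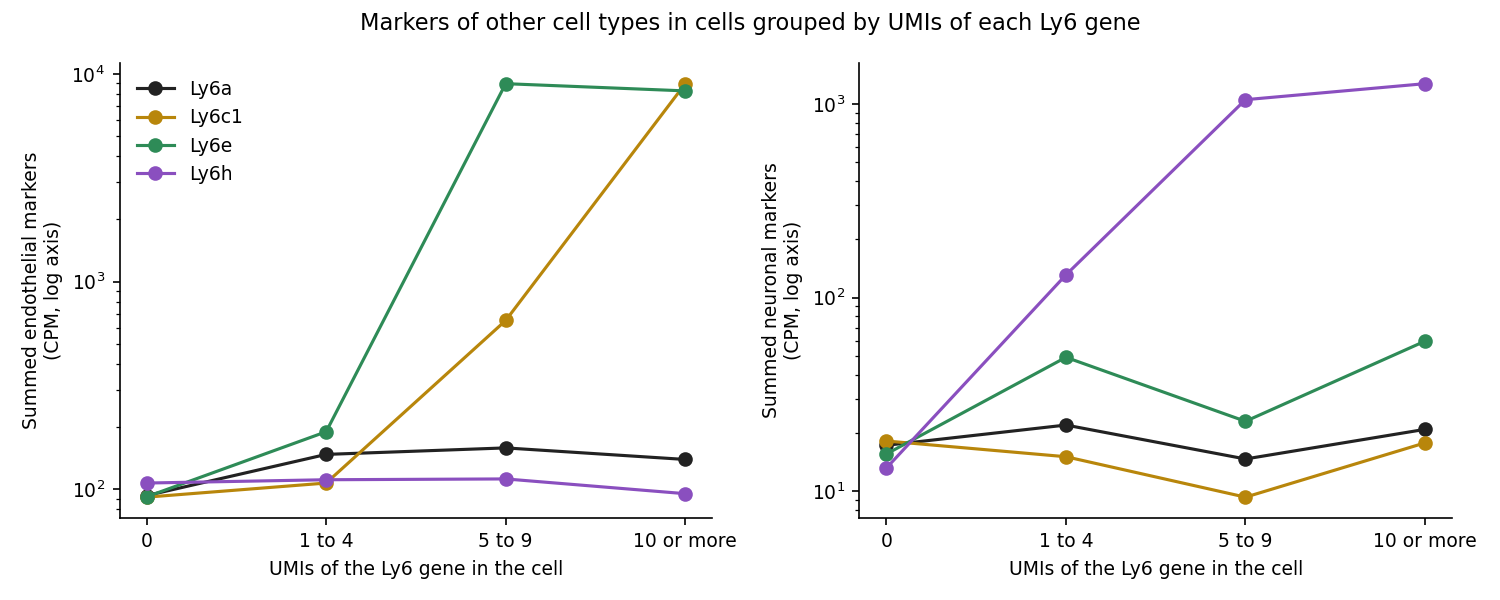
Summed endothelial (18 genes, Slc2a1 included) and neuronal (7 genes) marker levels (CPM, log axis) in cells grouped by their number of UMIs of each Ly6 gene. The endothelial sum is 93.1 to 158 over all Ly6a groups and reaches 8960 in cells with 10 or more Ly6c1 UMIs; the neuronal sum is 1050 in cells with 5 to 9 Ly6h UMIs.

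Ly6a and C4b were compared cell by cell within library and cluster, in units with at least 20 cells with and 20 without a C4b UMI, all cells thinned to 5000 UMIs. Oligo1 was left out by this rule, as nearly all its cells held C4b. In 11 of 12 FireΔ/Δ units, Ly6a was detected in a larger share of the C4b-positive than of the C4b-negative cells, with a median difference of 13.3 percentage points (range -0.616 to 17.6). In Oligo3 of FireΔ/Δ hippocampus, 29% of 352 C4b-positive and 13.7% of 866 C4b-negative cells held Ly6a in mouse 3, and 29.6% of 196 and 14.3% of 691 in mouse 6. In Oligo3 of FireΔ/Δ cortex, the shares were 30.9% of 97 and 15.4% of 507 in mouse 3, and 19.6% of 143 and 16.8% of 364 in mouse 6. The difference was smallest in cortex of mouse 6, a library of batch 6. Without mouse 3 the median difference was 8.19 points, and without mouse 6 it was 15.3.

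In Fire+/+ mice C4b-positive cells were scarce, and 4 units, all Oligo3, reached the minimum. Ly6a was detected in 6% of 50 C4b-positive and 11% of 1796 C4b-negative cells in hippocampus of mouse 1, and in 10% of 30 and 12.1% of 960 in its cortex. In mouse 4 the shares were 44.4% of 45 and 21.6% of 657 in hippocampus, and 23.1% of 26 and 20% of 799 in cortex. The median difference over the 4 units was 0.485 points, and it was 12.9 without mouse 1 and -3.55 without mouse 4. In cells that were not thinned, cortex of mouse 4 turned to -2.17 points (23.4% against 25.6%), so that hippocampus of mouse 4 was the 1 Oligo3 unit of the Fire+/+ mice that stayed higher in C4b-positive cells.

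**Figure D5:**
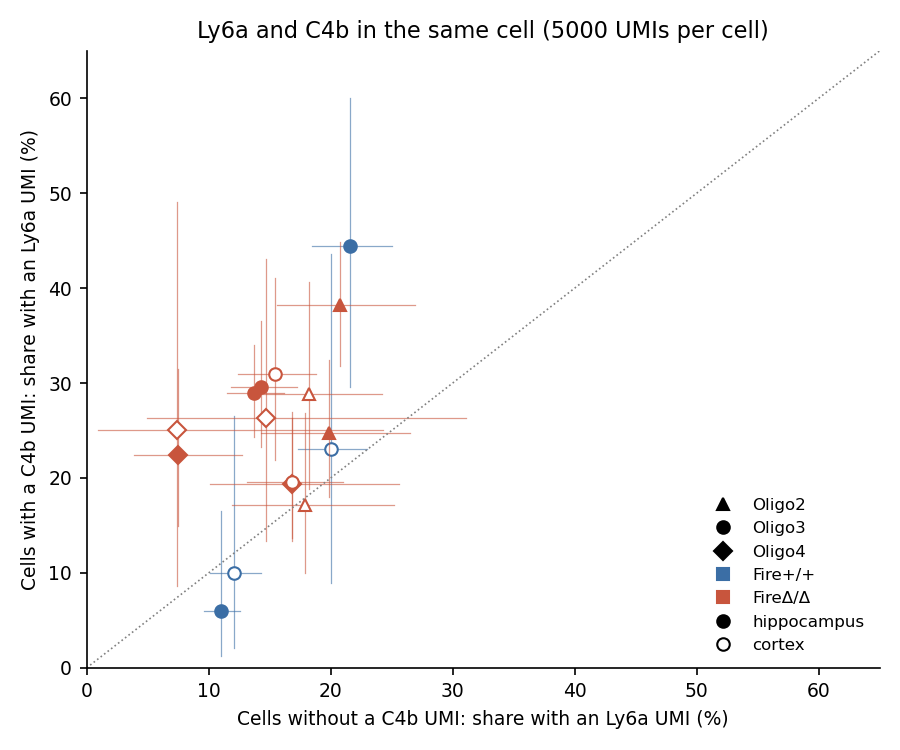
Share of cells (%) with a Ly6a UMI among C4b-negative cells (x axis) and C4b-positive cells (y axis), 1 point per library and cluster with at least 20 cells of each kind, thinned to 5000 UMIs per cell, bars: exact 95% intervals. Of the 12 FireΔ/Δ units 11 lie above the line of equality, as do 2 of the 4 Fire+/+ units.

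Read from the side of Ly6a, C4b was seen in 29%, 41.1% and 49.5% of FireΔ/Δ Oligo3 cells with 0, 1 to 4 and 5 or more Ly6a UMIs. Median depth was near equal in these groups, at 10453.5, 10615 and 10543 UMIs. Serpina3n, a serine protease inhibitor gene and, like C4b, an Oligo1 gene, was seen in 10.1%, 14% and 20.7% of the same cells, and Cd59a, which encodes an inhibitor of the complement membrane attack complex and belongs to the Ly6 superfamily, in 34.3%, 44.2% and 49.5%. These shares pool the 4 FireΔ/Δ libraries. In Fire+/+ Oligo3 cells pooled in the same classes, C4b was seen in 5.64%, 7.26% and 10.1% and Cd59a in 28.5%, 33.9% and 41.2%. Serpina3n was seen in 1.6%, 1.49% and 4.09% of these Fire+/+ cells. Their median depth was less equal, at 10342.5, 10685 and 11691 UMIs. In Fire+/+ Oligo3 cells, thinned, C4b was seen in 1.49% of cells with and 2.86% without Ly6a in hippocampus of mouse 1 and in 2.52% and 3.1% in its cortex, against 12.3% and 4.63% in hippocampus and 3.61% and 3.03% in cortex of mouse 4. Per library and after thinning, Ly6c1 in Oligo3 was more often detected in cells with than without Ly6a in 6 of 8 libraries, the exceptions being hippocampus of Fire+/+ mouse 4 (2.47% against 2.78%) and cortex of FireΔ/Δ mouse 3 (1.85% against 3.43%). Ly6e was so in 5 of 8 and Ly6h in 2 of 8.

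Over all genes in Oligo3, the share of cells with a UMI, after thinning, was compared between cells with and without Ly6a in each of the 8 libraries. Of 7511 genes seen in enough cells, 77 (1.03%) were higher in Ly6a-positive cells in all 8 libraries and 39 (0.519%) were lower in all 8. C4b was higher in 6 of 8 libraries, by 7.96 points on average, and Cd59a in 7 of 8, by 6.43 points. Among the 77 genes the largest mean differences were those of Tppp3 (7.12 points), which encodes a tubulin polymerization-promoting protein, the cytokine gene Il33 (6.45 points) and Enpp6 (5.83 points), which encodes a choline phosphodiesterase of newly forming oligodendrocytes. These 3 genes were picked after their values had been seen. How many of the 77 and 39 genes would arise without any relation to Ly6a was not estimated. Of 5 interferon response genes tested here, Xaf1 alone was higher in all 8 libraries, and of 3 other genes of the Ly6 family tested none was.

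The genes whose mean log2 value followed that of Ly6a most closely over 28 units of library and cluster were Aldh1l2 (Pearson r = 0.90), Serpina3n (0.88), Lgi4 (0.88), Syne2 (0.88) and Odc1 (0.87). These coefficients describe 9184 genes in units that share libraries, mice and depth, and they rest in part on Oligo1, since over the 24 units without it they were 0.69, 0.53, 0.69, 0.59 and 0.63. The coefficient of Ly6a with C4b fell from 0.84 to 0.36 in the same way, whereas that with Ly6c1 was 0.68 with and 0.86 without Oligo1. Ly6a and Ly6e gave 0.27 and -0.16. The closest genes were Snapc1 (0.79), Pacsin2 (0.77), Erich3 (0.74), Rasl11b (0.73) and Cox5b (0.73) for Ly6c1, Tent5a (0.66), Smtn (0.61), Cd63 (0.59), Hpcal1 (0.59) and Ss18l2 (0.57) for Ly6e, and Rtn1 (0.77), Psmd12 (0.70), Celf4 (0.66), Psme1 (0.66) and Nnat (0.66) for Ly6h, 3 genes with few UMIs per unit.

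The wider Ly6/uPAR family was followed through a list of 41 genes, of which 20 were in the matrix and 7 were seen in at least 5% of cells. Of these 7, 0 rose and 0 fell by genotype in Oligo2 to Oligo4 cells by limma, as for 0% of all genes, and their median difference was 0.013 against 0.001 over all 9232 genes. Cd59a was the most widely detected, in 45.9% of cells. Lypd1 was seen in 12.5% of cells, Lypd6, known as a Wnt co-factor, in 11.9% and Ly6g6f in 9.61%, with shares of 8.6%, 12.3% and 9.31% in Oligo1 and of 13.1%, 11.9% and 9.65% in the other clusters. A further 9 of the 20 were seen in under 1% of cells. By cluster in FireΔ/Δ mice, Cd59a was seen in 73.7%, 77.3%, 37.1% and 33.4% of Oligo1, Oligo2, Oligo3 and Oligo4 cells, and Ly6a in 46.2%, 29.3%, 23.1% and 22.4%. Cd59a was thus as widely detected in Oligo2 as in Oligo1, unlike Ly6a, a description to which no test was applied.

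Ly6a and Ly6e are known as interferon-inducible genes, so a list of 26 interferon response genes was set beside them. Their summed level in Oligo2 to Oligo4 cells was 231 to 250 CPM in Fire+/+ libraries and 296 to 347 in FireΔ/Δ libraries, and 369 to 718 in FireΔ/Δ Oligo1 cells. Over all cells, the largest contributors to this sum were Ifi27 (14653 UMIs) and Xaf1 (9264), whereas Ifit1 had 81 UMIs and Isg15 had 52. Of 7 list genes tested by genotype, 0 passed in either direction by limma, as for 0% of all 9232 genes. All 7 had a positive difference, as did 51.1% of all genes, and the median was 0.019 against 0.001 over all genes. The summed levels of the genotypes did not overlap, unlike those of Ly6a, but this sum was not tested. The 11 microglial markers summed to 64.0 to 154 CPM in Fire+/+ and 14.9 to 21.7 in FireΔ/Δ Oligo2 to Oligo4 cells, and their part in the values above was not tested. The 18 endothelial markers summed to 90.0 to 117 and 110 to 128 CPM, and these ranges overlapped.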

How the data were processed

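Single-cell RNA sequencing (10x Genomics 3′, v3.1) was performed by the authors on viable sorted cells; reads were processed with Cell Ranger 5.0.0 against mm10, per the labels. The authors kept oligodendrocytes with at least 5000 UMIs and at most 10% mitochondrial reads, normalized by deconvolution with scran and deposited log2 values (pseudocount 1). The deposited cell table gives the scran size factor, a scaling score per cell, with cluster and batch. Doublets were excluded by scatter gates in the sort; no doublet caller was run here. Whole UMIs were recovered from the log2 values and size factors within 0.001 for every value above 0. The deposited cell table also gave total counts per cell, equal to the recovered sum in 11264 of 12581 cells, with at most 0.828% missing.

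Levels are mean log2 values per library, CPM (UMIs summed over cells per 1000000), and shares of cells with a UMI after random thinning to 5000 UMIs (0 cells dropped). Tests used limma 3.58.1 in R 4.3.3 on mean log2 values over all genes detected in 5% of cells or more, the mouse being the replicate for genotype (2 against 2) and library values with genotype as covariate for tissue, with Benjamini-Hochberg adjustment. Exact permutation of 2 against 2 mice cannot go below p = 0.333 and was not used. Alternatives used edgeR 4.0.16 on recovered UMI sums, other scales, filters and cell subsets, and left out each mouse. Scripts ran in Python 3.11.15 (numpy 2.4.6, scipy 1.17.1, pandas 2.3.3) and were tested on simulated data. Transcript positions are from GENCODE M21. The gene members, the gene lists and the comparisons were chosen with earlier results of these data known. Named genes are the 4 members, C4b, list genes and, per member, the 5 genes with the highest Pearson correlation; exceptions are stated. Libraries sharing a mouse number come from the same mouse (deviations of paired libraries correlated at 0.84 and 0.85, which for 2 mice per group are equal by construction). Mice of 1 genotype differ in age and batch, so p-values measure the spread between these mice.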

Additional observations from a re-analysis of the deposited data

How the results depend on the processing

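Each of the 4 Ly6 genes stayed above the adjusted threshold in every test and alternative that included it, and the adjusted p of Ly6a by genotype ranged from 0.805 to 1. Ly6h was tested only in fits without a detection minimum, and its alternatives covered the tissue difference alone. In those fits Ly6h was 0.003 by genotype (SE 0.006) and 0.004 in the interaction (SE 0.009), neither past the threshold (limma). Ly6c1 and Ly6e were not tested under the stricter minimum of 10% of cells. The number of genes called by genotype was 0 and became 2 on log2(mean normalized value + 0.1), 1 without a detection minimum, 3 by edgeR and 5 with tissue and mouse age as blocks; none was Ly6a, Ly6c1 or Ly6e. By tissue, the replicate block raised it from 0 to 6 and gave Ly6a 0.044 with adjusted p = 0.533 (limma). The cause of these changes was not tested. Leaving out 1 mouse moved the Ly6a genotype difference between -0.068 and 0.211 and its interaction with tissue between -0.150 and 0.012, the latter being 0.037 over all oligodendrocytes. The following differences, none past the threshold, changed sign. By genotype, Ly6e was -3.5e-05 without Fire+/+ mouse 1 (up to 0.021 without mouse 4) and -0.003 in cortex alone. By tissue, Ly6c1 was -0.051 and -0.006 on log2(mean + 0.1) and log2(mean + 1), -0.245 by edgeR and -0.003 to 0.010 when a mouse was left out, where Ly6e ranged from -0.00082 to 0.016 and C4b from -0.007 to 0.163. In the interaction, Ly6c1 was 0.175 and 0.024 on the same scales and -0.027 to 0.011 when a mouse was left out, where C4b ranged from -0.097 to 0.414. Oligo1 minus other cells for Ly6a was 1.84 as a log2 ratio of CPM values and 0.68 against Oligo3 alone. The Ly6a and C4b co-detection difference ranged from 8.19 to 15.3 points when a FireΔ/Δ mouse was left out. C4b by genotype (0.70 on the mean log2 scale, adjusted p = 0.748, limma) passed at 3.186 on log2(mean + 0.1) (adjusted p = 0.023, limma) and 4.347 by edgeR (adjusted p = 0.0318). Of all alternative values, 221 kept their direction and side of the threshold or moved by less than the spread, 15 changed sign, 11 moved and 2 passed the threshold. The values of Ly6c1, Ly6e and Ly6h rest on 1338, 1121 and 486 UMIs over 12581 cells, against 23202 for Ly6a, which limits their precision.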
